A study of Rattus norvegicus with 32 samples.

Results

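Lung RNA taken 24 h after hemorrhage was compared with lung RNA of rats that were instrumented but not bled. The members were chosen by sample title: the 3 arrays labelled 24 h and sham replicates 1, 3, 4, 5 and 6, which made 8 of the 32 arrays. Sham replicate 2 was left out because liver transcripts were high on it. Some of its values, and the calls with it kept, are given as a check. All 8 arrays came from male Sprague-Dawley rats weighing 280 to 300 g, each fitted under isoflurane with arterial catheters and a telemetry device in the abdomen, and left to recover for 7 to 10 days. The 24 h rats then lost 40% of their estimated blood volume by manual withdrawal, with no other treatment in the labels, and the sham rats were monitored without blood loss. The labels tie the sham lungs to no hour after a start of the experiment, give no age in days or weeks, and do not number the animals. The p-values therefore measure the spread between samples, not between known animals, and that spread was estimated within 9 groups of 30 arrays. Further groups of the series used below were 3 control arrays from rats that carried no instruments and arrays at other times after the same blood loss.

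Blood loss lowers the pressure and the oxygen that reach the tissues, and the body answers with catecholamines, vasopressin and glucocorticoids and with a general inflammatory response. The lung takes the whole output of the right heart, and its capillaries hold a large store of neutrophils beside resident macrophages, so it is an organ in which leukocytes are known to gather after shock. Its air spaces are lined by type I cells, through which gas passes, and type II cells, which secrete surfactant, joined by E-cadherin and tight junctions.

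Each value is a log2 ratio of lung RNA to a pool of RNA from several organs of untreated rats, on a 2-colour spotted cDNA array, centred so that the median spot of every array is 0. Levels below are these centred log2 ratios, and changes are 24 h minus sham on the same scale with the standard error (SE) of the fit. The 8 arrays carried values on 12537 to 12764 of 13056 spots, which gave 5016 genes with enough values for a test. Lung identity was clear on all 8: Sftpc, which encodes surfactant protein C, stood at 2.22 to 4.48 in sham and 2.97 to 3.66 at 24 h, while Alb, the liver's albumin, stood at -4.48 to -2.78 and at -3.13 to -2.89. On sham replicate 2 Sftpc stood at -3.48 and Alb at 2.62, and its correlation with the 8 arrays over spots was -0.03 to 0.13. Pairs of sham arrays correlated over spots at 0.583 to 0.70 and pairs of 24 h arrays at 0.487 to 0.589, so the bled lungs were the more varied group. On 24 h replicate 1, 119 spots had a linear ratio at or below 0.05, close to the lowest deposited ratio of 0.01 where log2 values are coarse, against 37 on each of the other 24 h arrays and 37 to 79 in sham.

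At 24 h more genes lay below sham than above it. Of 5016 genes, 46 rose (0.917%) and 150 fell (2.99%), 3.91% in all, at an adjusted p under 0.05 (limma, Benjamini-Hochberg over all genes tested), and 1011 had an unadjusted p under 0.05. The median change was 1.13 among the genes that rose, -1.19 among those that fell and 0.01 over all genes. Among the 4936 genes measured on all 8 arrays, every 24 h array lay above every sham array for 211 (4.27%) and below for 339 (6.87%). Of the called genes measured on all 8 arrays, 33 that rose and 125 that fell had their 3 bled lungs outside the sham range. In bulk tissue fewer cells of a type and less RNA per cell cannot be told apart. These calls rested on a spread shared by 30 arrays of 9 groups: with the 8 arrays fitted alone limma called 0 genes higher and 1 lower, with 880 at an unadjusted p under 0.05. Without the centring on each array's median, 26 genes were called higher and 372 lower, so that 93.5% of calls were lower against 76.5% with it, and the median of all genes moved to -0.17. The deposited median of 24 h replicate 1 was -0.38, beside -0.14 and -0.06 on replicates 2 and 3 and -0.06 to 0.06 in sham.

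**Figure D1:**
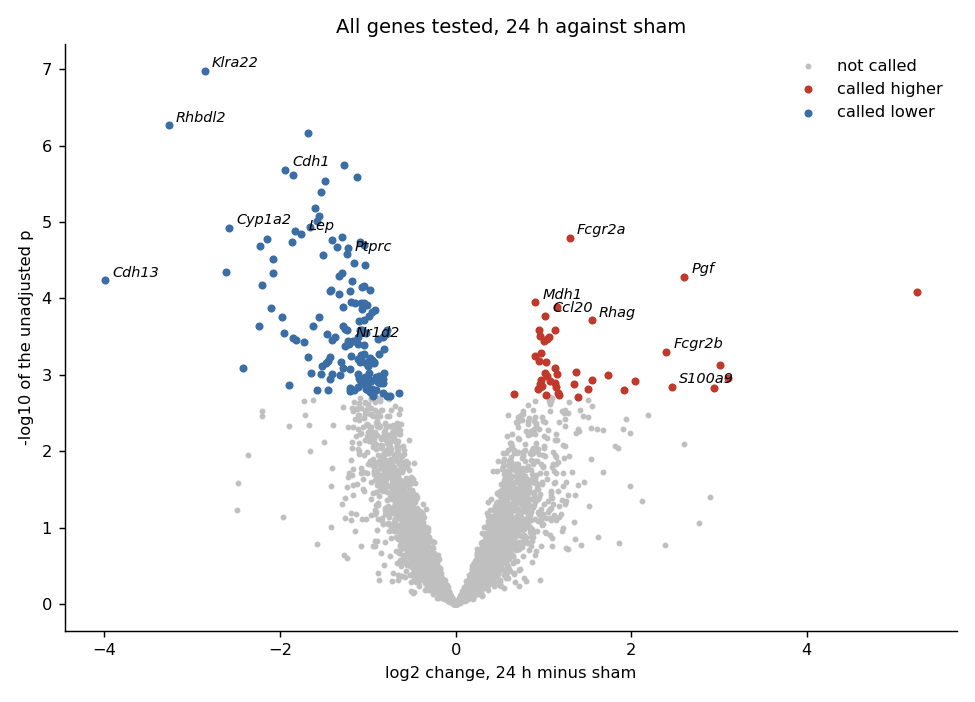
Each point is 1 of 5016 genes, with the log2 change at 24 h against sham on the horizontal axis and -log10 of the unadjusted p on the vertical axis. Red points are the 46 genes called higher and blue points the 150 called lower. Klra22 and Cdh1 stand near the top on the lower side, and Fcgr2a and Pgf have the smallest p on the higher side. Dpf1, not labelled, lies further right at 5.25.

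The genes that rose included Fcgr2a and Fcgr2b. Fcgr2a, a low-affinity receptor for IgG on phagocytes, stood at -0.84, -0.82, -0.62, -1.11 and -1.10 on the sham arrays and at 0.69, 0.11 and 0.40 at 24 h. All 3 bled lungs lay above all 5 sham lungs, and the change was 1.30 ± 0.25 (SE), with an adjusted p of 0.00412. Its 2 probes gave 1.59 and 1.01. Fcgr2a was the 1 gene of the 46 that stayed called whichever of the 8 arrays was left out, with changes of 1.15 to 1.44. Fcgr2b, the inhibitory receptor of the same family, stood at -1.30, -3.02, -0.61, -0.86 and -1.16 in sham and at 2.30, 0.29 and 0.44 at 24 h, a change of 2.40 ± 0.61 (adjusted p = 0.0249). Its highest value was on 24 h replicate 1, and 1 sham spot was near the lowest ratio. The call of Fcgr2b was lost without 24 h replicate 1 (1.76, adjusted p = 0.134), 24 h replicate 3 (2.68, 0.0582) or sham replicate 3 (1.99, 0.0719). Fcgr2b stood at 1.70 on sham replicate 2, and with that array kept the change was 1.88 and not called (adjusted p = 0.127). The genes of this family are alike in sequence, and a spotted cDNA may bind transcripts of both.

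Among secreted signals, Pgf and Ccl20 rose. Pgf, placental growth factor, a ligand of the VEGF receptor Flt1, stood at -1.19, -0.87, 0.35, -0.98 and -1.0 in sham and at 4.23, 0.62 and 0.75 at 24 h. The 24 h lungs were all above the sham lungs, but replicate 1 lay far above the other 2. Its change was 2.60 ± 0.54 (adjusted p = 0.00723), and 1.42 without 24 h replicate 1, where the call was lost (adjusted p = 0.054). Ccl20, a chemokine that draws cells bearing Ccr6, stood at -0.68, -0.44, -0.47, -0.72 and -0.26 in sham and at 0.67, 0.60 and 0.23 at 24 h. Here the groups were tight and did not overlap, and the change was 1.01 ± 0.23 (adjusted p = 0.0139), with 0.93 and an adjusted p of 0.0535 without 24 h replicate 1.

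S100a9, a subunit of calprotectin, an abundant protein of neutrophils, was the neutrophil gene that rose. It stood at -0.62, 0.00, 1.78, -0.45 and -0.09 in sham and at 5.39, 0.68 and 1.70 at 24 h. The groups overlapped, since sham replicate 4 lay above 2 of the bled lungs, and 24 h replicate 1 carried most of the change of 2.47 ± 0.69 (adjusted p = 0.0424). Without that array the change was 1.06 with an adjusted p of 0.32, and the call was also lost without 24 h replicate 3 or sham replicate 1, 3, 5 or 6 (2.91, 2.28, 2.43, 2.32 and 2.41, adjusted p = 0.0689 to 0.0917).

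The 250 bases before the start sites of Ccl20 and S100a9 are shown because Ccl20 is a textbook target of NF-kB and S100a9 marks the leukocytes that gather in a shocked lung. They are from RefSeq on build GRCr8, 5′ to 3′ on the gene's strand, and the searched motif is in capitals.
Ccl20, chr9:91836909-91837158, plus strand: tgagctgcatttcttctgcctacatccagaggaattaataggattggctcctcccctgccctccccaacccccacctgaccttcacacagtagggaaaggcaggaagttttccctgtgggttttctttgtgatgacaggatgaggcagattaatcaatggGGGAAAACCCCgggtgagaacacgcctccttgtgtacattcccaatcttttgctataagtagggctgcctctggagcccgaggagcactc
S100a9, chr2:178490623-178490872, minus strand: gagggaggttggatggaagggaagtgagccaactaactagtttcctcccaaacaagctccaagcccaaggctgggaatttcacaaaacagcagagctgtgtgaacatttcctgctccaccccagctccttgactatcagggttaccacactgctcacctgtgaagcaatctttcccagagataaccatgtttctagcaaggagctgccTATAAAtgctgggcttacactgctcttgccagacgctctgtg
In Ccl20 the capitals at -90 to -80 hold 2 overlapping matches to a kappa B motif, searched on both strands as GGG, any pair of bases and TTTCC, as GGGAA and TTCCC, or as GGGAA, any 3 bases and CC. In S100a9 the capitals at -42 to -37 are TATAAA. The motifs were chosen after matches in these windows had been seen. Over windows of the same length the kappa B motif was in 5.92% of 27457 promoters and 7.08% of those of 4083 tested genes, and in 4 of 39 called higher and 6 of 116 called lower genes with a sequence. TATAAA was in 13.1% and 11.4%, and in 3 of 39 and 14 of 116. The window of Nr1d2 was searched on both strands for the E-box CACGTG, with 0 matches. That motif was in 5.79% and 7.25%, and in 5 of 39 and 4 of 116. These matches describe the sequence and were not tested as binding sites.

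Apart from these genes, the 12 largest rises included genes of membrane traffic, protein modification and signalling. They were taken from called genes with a value on all 8 arrays and no overlap between groups. Ccni, which encodes cyclin I, had a change of 2.94 ± 0.82, with sham levels of -3.29 to -0.78 and 24 h levels of 0.90 to 1.00. Cpe, a carboxypeptidase that trims peptide hormones, had 2.04 ± 0.56, with 2.25 on 24 h replicate 1 and -0.52 and -0.86 on the others. Rhag, the Rh-associated glycoprotein of the red cell membrane, stood at -1.78, -1.62, -1.18, -1.32 and -1.12 in sham and at -0.89, 0.11 and 1.21 at 24 h. Its 3 bled lungs were all above sham yet spread over 2 log2 units, and the change was 1.55 ± 0.36 (adjusted p = 0.0148), or 1.01 with an adjusted p of 0.207 without 24 h replicate 3. Ube3a, a ubiquitin ligase, rose by 1.15 ± 0.26 and lost its call without 24 h replicate 3 (1.06, adjusted p = 0.0844). The remaining 5 were Svs1 (1.91), a seminal vesicle protein gene, Nmt1 (1.55), which attaches myristate to proteins, the Wnt receptor gene Fzd3 (1.51), the vesicle transport gene Scfd1 (1.37) and the ubiquitin ligase gene Rnf123 (1.34), with adjusted p-values of 0.0352 to 0.0437. Each of these 5, Ccni and Cpe lost its call in 4 to 7 of the 8 fits that left out 1 array, with adjusted p-values up to 0.265 (Cpe without 24 h replicate 1, 1.06).

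**Figure D2:**
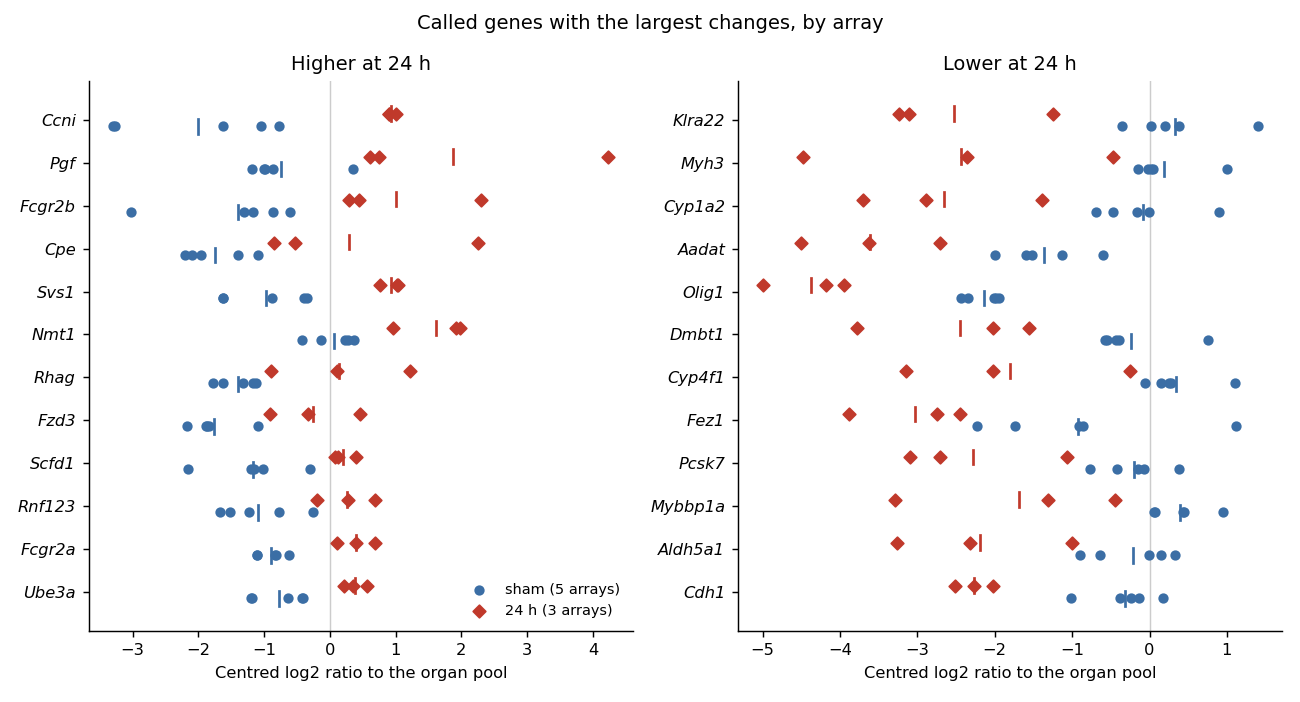
The horizontal axis gives centred log2 ratios to the organ pool for the 12 largest called changes in each direction. Only genes with a value on every array of both groups, and with no overlap between groups, were ranked. Dpf1 (5.25), Rhbdl2 (-3.27) and Cdh13 (-3.99) had larger changes but were not ranked, since each lacked a value on 1 array. Blue circles are the 5 sham arrays, red diamonds the 3 arrays at 24 h and vertical lines the group means. Pgf and Cpe have 1 bled lung far to the right of the other 2, while the 3 values of Cdh1 lie close together between -2.51 and -2.02.

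The genes that fell were led by Klra22 and included the epithelial gene Cdh1. Cdh1 encodes E-cadherin, the adhesion protein of epithelial cell borders. It stood at 0.18, -0.13, -1.02, -0.24 and -0.38 in sham and at -2.51, -2.02 and -2.26 at 24 h. The bled lungs lay within 0.5 log2 units of each other and a full unit below the lowest sham lung. The change was -1.95 ± 0.32 (adjusted p = 0.00183) and ranged from -2.12 to -1.82 when any 1 array was left out, with the call kept each time. Klra22, of the Ly49 family of natural killer cell receptors, stood at -0.36, 1.40, 0.38, 0.01 and 0.21 in sham and at -1.25, -3.10 and -3.23 at 24 h. Its change was -2.86 ± 0.40, with the smallest adjusted p of all genes (0.000523), and it stayed called in the 8 fits without 1 array. Ly49 genes are near copies of one another, so the spot may report several of them, and Klra5 of the same family had a change of 0.01 (adjusted p = 0.99).

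Metabolic enzymes made up part of the largest falls. Cyp1a2, a cytochrome P450 induced through the aryl hydrocarbon receptor, stood at -0.16, 0.00, 0.90, -0.47 and -0.69 in sham and at -3.70, -1.39 and -2.89 at 24 h. All 3 bled lungs were below sham, with 2 spots near the lowest ratio, and the change of -2.58 ± 0.48 (adjusted p = 0.00412) kept its call whichever array was left out. Cyp4f1, a fatty acid hydroxylase, fell by 2.15 on the log2 scale, Aadat, an aminotransferase of the kynurenine pathway, by 2.24 and Aldh5a1, which clears succinic semialdehyde, by 1.98. Aadat stood at -2.00 to -0.60 in sham and at -2.70, -3.63 and -4.50 at 24 h. The other large falls were in Myh3, the embryonic myosin heavy chain (-2.62 ± 0.54), Olig1, a transcription factor gene of oligodendrocytes (-2.23 ± 0.43), Dmbt1, a secreted scavenger receptor of mucosal surfaces (-2.21 ± 0.47), Fez1 (-2.10 ± 0.47), the proprotein convertase gene Pcsk7 (-2.08 ± 0.41) and the nucleolar protein gene Mybbp1a (-2.07 ± 0.43). Olig1 lay at -2.44 to -1.94 in sham and at -3.94, -4.19 and -5.00 at 24 h, where 3 of its spots were near the lowest ratio, so that the size of its fall is coarse. Of these 9 genes, Myh3 lost its call without 24 h replicate 1 (-1.60, adjusted p = 0.0594). The others lost it without 24 h replicate 3, with changes of -1.80 for Aadat, -1.92 for Olig1, -1.55 for Dmbt1, -1.48 for Cyp4f1, -1.67 for Fez1, -1.68 for Pcsk7, -1.27 for Mybbp1a and -1.45 for Aldh5a1, and adjusted p-values of 0.0544 to 0.173.

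When 1 array at a time was left out, all 46 higher and all 150 lower genes kept their sign, and 1 higher and 17 lower genes kept their call in all 8 fits. Besides Cdh1, Klra22 and Cyp1a2 these were Avpr1b, Cma1, Afp, Aldh3a2, Dctpp1, Kcna3, Kcnk15, Limk2, Muc2, Sh3kbp1, Slc22a5, Slc22a8, Tmod1 and Tubg1, named after their values were seen. Their sham groups ranged from tight to wide, the widest of these 14 being Dctpp1 at -0.38 to 1.39, with -1.39 to -1.05 at 24 h. Slc22a5, the carnitine transporter that feeds fatty acid oxidation, stood at 0.29 to 0.48 in sham and at -0.75 to -0.61 at 24 h. Kcna3, the potassium channel of T lymphocytes, stood at -0.42 to 0.35 and at -2.41 to -1.38. Muc2, the gel-forming mucin of the gut, stood at -0.53 to -0.08 and at -2.38 to -1.22. Sh3kbp1, an adaptor protein of receptor endocytosis, stood at 0.13 to 0.44 and at -0.94 to -0.82. The number of calls depended on 24 h replicate 3 in particular, since without it 6 genes were called higher and 30 lower. It also moved with other single arrays: without 24 h replicate 1 there were 20 higher calls, and without sham replicates 1, 3, 5 and 6 there were 20, 19, 25 and 25. Without sham replicate 4 there were 96, and lower calls numbered 99, 84, 189, 112 and 97 without sham replicates 1, 3, 4, 5 and 6.

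**Figure D3:**
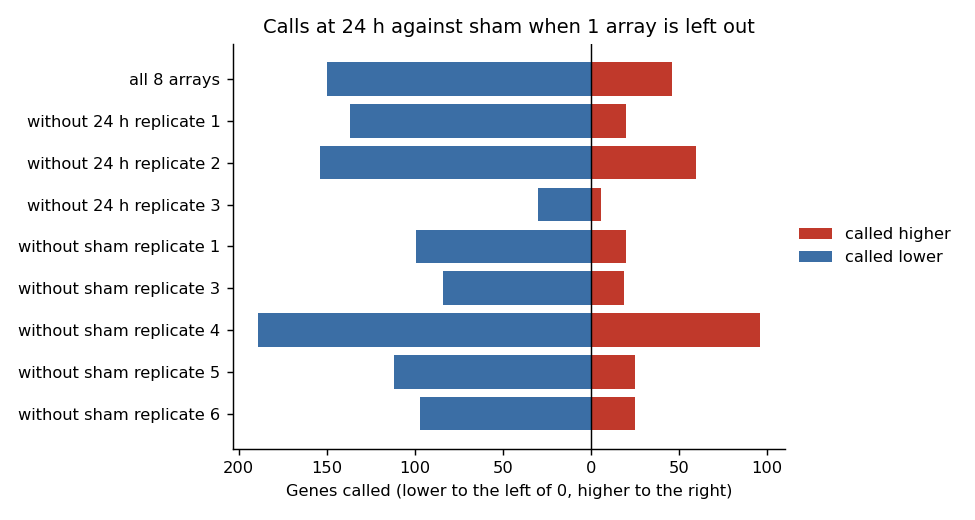
Horizontal bars give the number of genes called at 24 h against sham with all 8 arrays and with each array left out in turn, lower calls in blue to the left of 0 and higher calls in red to the right. The bars are shortest without 24 h replicate 3 (6 higher, 30 lower) and longest without sham replicate 4 (96 higher, 189 lower).

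Leukocyte genes did not move as blocks. The neutrophil list was called at 5.26%, beside 3.91% over all genes. Of 19 neutrophil genes tested, S100a9 rose, none fell (0 of 19) and 18 were not called, with a median change of 0.10, or -0.06 without sham replicate 1 and 0.26 without 24 h replicate 3. Mmp8, the neutrophil collagenase, stood at -3.02 to -1.51 in sham and at 0.77, -1.28 and -0.05 at 24 h. Its groups did not overlap, but the change of 2.19 ± 0.68 had an adjusted p of 0.066. S100a8, the partner of S100a9, stood at 2.74, 0.87 and 0.28 at 24 h and at -0.48 to 0.67 in sham (1.00, adjusted p = 0.121). For S100a9, S100a8 and Mmp8 the highest of the 3 bled lungs was replicate 1, as it was for Pgf, Fcgr2b and Cpe. Cybb, the catalytic subunit of the phagocyte oxidase, went the other way without being called (-0.85, adjusted p = 0.0927). The list's median level was 0.06 to 0.48 on the sham arrays and 0.02 to 0.51 on the 24 h arrays. Against the control arrays 5 genes of this list were called higher and 1 lower, with a median change of -0.004. Over all genes 4.03% were called higher and 6.02% lower against control.

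Of 18 monocyte and macrophage genes 2 rose, Fcgr2a and Fcgr2b, and the median change was 0.31. The monocyte, lymphocyte, mast cell and erythroid lists were called at 11.1%, 6.45%, 7.14% and 9.09%, beside 3.91% over all genes. Lyz2, the lysozyme of macrophages and type II cells, stood at 2.49 to 4.08 in sham and at 2.40 to 3.53 at 24 h, a change of -0.01 ± 0.61. Of 31 T, NK and B lymphocyte genes 2 fell, Klra22 and Ptprc, none rose and the median was 0.11, or -0.02 without 24 h replicate 2, 0.02 without sham replicate 5 and 0.05 to 0.06 without 24 h replicate 3 or sham replicate 1 or 3. Ptprc, which encodes CD45 of all white cells, stood at 0.53, 1.02, 0.13, 1.01 and 0.71 in sham and at -0.12, -0.68 and -0.86 at 24 h. Every bled lung was below every sham lung, and the change was -1.23 ± 0.24 (adjusted p = 0.00484), with -1.08 and 0.0544 without 24 h replicate 3. The T cell gene Cd3d had a change of -0.15 ± 0.33 and was not called. Of 14 mast cell genes the chymase gene Cma1 fell, from 0.21 to 0.58 in sham to -0.94 to -0.65 at 24 h (-1.22 ± 0.24, adjusted p = 0.00426), while the list's median was 0.36. Of 11 erythroid genes Rhag rose and 10 were not called, with a median of -0.08. The alpha globin gene Hba-a1 had a change of 0.00 ± 0.42 and Alas2, the first enzyme of heme synthesis in red cell precursors, of -0.08 ± 0.33.

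No gene of the type I and type II lists was called against sham, beside 3.91% over all genes. Cdh1, which fell, is on neither list. limma called 0 of 13 surfactant and type II genes, with 3 at an unadjusted p under 0.05 and a median of -0.06, and 0 of 8 type I genes, with 2 and -0.27. The median level of the type II list was 0.60 to 1.39 on the sham arrays and 0.43 to 0.84 at 24 h, and that of the type I list 1.17 to 2.12 and 1.12 to 1.5. Sftpb, surfactant protein B, stood at 3.89, 2.95, 2.99, 2.50 and 3.03 in sham and at 1.89, 2.08 and 2.35 at 24 h. Its groups did not overlap, but the change of -0.97 ± 0.32 had an adjusted p of 0.0776. Akap5, the type I gene with the smallest p, had a change of -0.67 ± 0.23 (adjusted p = 0.10). Without centring both were called lower, Sftpb at -1.15 (adjusted p = 0.0291) and Akap5 at -0.85 (0.0318). Against the control arrays Akap5 was called too (-0.85, adjusted p = 0.0387), as was the type II list's mucin gene Muc1 (-1.02, 0.0432). Of 13 airway genes, Fmo2, a monooxygenase abundant in lung, fell by 1.62 on the log2 scale. It stood at 2.13 to 2.77 in sham and at 1.94, -0.44 and 0.52 at 24 h, with all bled lungs below sham, and the call was lost without 24 h replicate 2 (-1.06, adjusted p = 0.106) or 24 h replicate 3 (-1.54, adjusted p = 0.0899). Scgb1a1, the secretory protein of club cells, stood at 2.52 to 3.96 in sham and at 2.43, 2.22 and 0.32 at 24 h, a change of -1.72 ± 0.53 that was not called (adjusted p = 0.0663). Foxj1, the master regulator of motile cilia, had 1.85 ± 0.66 (adjusted p = 0.109), with its 3 bled lungs above sham.

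Single genes of cell contacts and vessels fell. The cadherin, endothelial, VEGF and vasoactive lists were called at 8%, 7.69%, 6.06% and 3.12%, beside 3.91% over all genes. Of 25 cadherin, tight junction and adhesion genes 2 fell and none rose, Cdh1 and Cdh13, with a median of -0.07. Cdh13, the T-cadherin of endothelium and muscle, was measured on 2 of the 24 h arrays, at -2.80 and -5.51 against -0.97 to 0.87 in sham, and 2 of its 24 h spots were near the lowest ratio. Its change of -3.99 ± 0.82 (adjusted p = 0.00786) is therefore coarse. Of 26 endothelial genes Cdh13 and Plvap fell, with a median of -0.17 over the list. Plvap, which forms the diaphragms of capillary pores, stood at 1.03 to 1.89 in sham and at 1.13, -0.22 and 0.02 at 24 h (-1.20 ± 0.32, adjusted p = 0.0324), and replicate 1 lay inside the sham range. The call of Plvap was lost without 24 h replicate 2 (-0.94) or 3 (-1.06) or sham replicate 1 (-1.17), 3 (-1.16) or 6 (-1.11), at adjusted p-values of 0.0622 to 0.20. Of 33 VEGF family and angiogenesis genes Pgf rose and Fgfr3, a receptor for fibroblast growth factors, fell (-1.09 ± 0.30, adjusted p = 0.0383; called in 2 of 8 fits without 1 array), with a median of -0.09. Among 64 vasoactive mediator genes 2 fell and none rose, with a median of -0.14. Avpr1b, the vasopressin receptor known from the pituitary, stood at 0.35 to 0.99 in sham and at -1.04, -0.85 and -1.99 at 24 h, a change of -1.86 ± 0.31 (adjusted p = 0.00183) that kept its call in the 8 fits without 1 array. Ptgs2, cyclooxygenase 2, stood at 1.83, 1.49, 0.87, 1.24 and 1.44 in sham and at 0.95, -0.34 and -0.14 at 24 h, a change of -1.22 ± 0.30 (adjusted p = 0.0207). Only replicate 1 of the bled lungs reached into the sham range of Ptgs2, and its call was lost without 24 h replicate 2 (-0.97, 0.0908) or 3 (-1.07, 0.15) or sham replicate 1 (-1.10, 0.0547).

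Inflammatory signalling genes were mixed. The cytokine and immediate early lists were called at 5.33% and 5.71%, beside 3.91% over all genes. Of 75 cytokine, chemokine and NF-kB genes 1 rose, Ccl20, and 3 fell, Ptgs2, Socs1 and Csf3, with a median of -0.04. Socs1, a feedback inhibitor of cytokine receptors, stood at -0.07 to 0.57 in sham and at -1.07, 0.05 and -2.88 at 24 h. The bled lungs of Socs1 were spread and overlapped with sham, and the change of -1.52 ± 0.40 (adjusted p = 0.0308) was -0.72 with an adjusted p of 0.334 without 24 h replicate 3. Csf3, the growth factor for neutrophils known as G-CSF, stood at 0.39 to 1.12 in sham and at -0.05, -0.07 and -1.50 at 24 h (-1.40 ± 0.38, adjusted p = 0.0356), with -0.92 and 0.292 without 24 h replicate 3. Socs1 and Csf3 were each called in 3 of the 8 fits without 1 array. Of 35 immediate early genes 2 fell and none rose, at a median of 0.01. Both belong to the AP-1 transcription factors: Fosl1 (-1.19 ± 0.26, adjusted p = 0.0111) and Jun (-0.93 ± 0.24, adjusted p = 0.0288). Jun stood at 0.59 to 1.36 in sham and at 0.31, -0.61 and -0.05 at 24 h, and Fosl1 at -0.41 to 0.41 and at -0.97, -0.54 and -1.52, with no overlap for either. Fosl1 lost its call without 24 h replicate 3 (-0.94, 0.123), and Jun without 24 h replicate 2 (-0.69, 0.128) or 3 (-0.97, 0.0963) or sham replicate 1 (-0.80, 0.0708) or 3 (-0.94, 0.0553). limma called 0 of 15 interferon-stimulated genes, with 1 at an unadjusted p under 0.05 and a median of -0.02.

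Energy metabolism and cell maintenance showed single calls in both directions. The hypoxia, mitochondrial and oxidative stress lists were called at 6.82%, 2.38% and 2.27%, beside 3.91% over all genes. Of 44 hypoxia and glycolysis genes Mdh1 rose and Pfkm and Aldoa fell, with a median of 0.03. Mdh1, the cytosolic malate dehydrogenase, stood at -0.14, 0.06, 0.06, 0.43 and 0.14 in sham and at 1.15, 0.78 and 1.12 at 24 h (0.91 ± 0.20, adjusted p = 0.0111), with 0.86 and 0.0689 without 24 h replicate 3. Pfkm, the muscle form of phosphofructokinase, stood at -0.79 to -0.04 and at -1.29, -1.34 and -1.97 (-1.18 ± 0.25, adjusted p = 0.00786), with -0.96 and 0.0892 without that array. Aldoa, aldolase A, fell by 0.94 on the log2 scale. Of 42 mitochondrial respiration genes Uqcrfs1, the iron-sulfur protein of complex III, fell (-0.98 ± 0.27), and the median was 0.06. Of 44 oxidative stress defence genes Gpx4, the peroxidase that guards membrane lipids, fell (-0.97 ± 0.28), at a median of 0.06. Aldoa, Uqcrfs1 and Gpx4 had adjusted p-values of 0.0466, 0.0382 and 0.0456, and each lost its call in 6 of 8 fits without 1 array. Their changes without 24 h replicate 3 were -0.70, -1.49 and -0.88, and Uqcrfs1 had -0.61 without 24 h replicate 1.

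Genes of protein synthesis and turnover were called at 3.85% in the ribosomal list and 0 in the proteasome list, beside 3.91% over all genes. Of 52 cytoplasmic ribosomal protein genes 40 had a change above 0 and 12 below, and the median was 0.50 against 0.01 for all 5016 genes, yet 1 rose, Rpl10a, and 1 fell, Rpl36. The list's median level was 0.45 to 1.35 on the sham arrays and 0.46 to 1.62 at 24 h, so the groups overlapped. The median change of the ribosomal list was 0.32 without centring and 0.28 to 0.86 when 1 array was left out. Rpl10a stood at -0.23 to 1.36 in sham and at 2.36, 1.12 and 2.32 at 24 h (1.40 ± 0.41, adjusted p = 0.0499), and Rpl36 at 0.83 to 1.56 and at 0.39, -0.38 and -0.49 (-1.26 ± 0.31, adjusted p = 0.0215). Rpl10a lost its call in 6 of 8 fits without 1 array and Rpl36 in 3. Of 31 proteasome genes 23 lay above 0, limma called 0 with 6 at an unadjusted p under 0.05, and the median was 0.25, or 0.07 without centring, with list levels of 0.07 to 0.47 in sham and 0.21 to 0.60 at 24 h. Psma1 had the smallest p among them, with 24 h levels of 0.97, 1.05 and 1.11 above sham levels of -0.83 to 0.44 (1.02 ± 0.32, adjusted p = 0.073). Against the control arrays 8 ribosomal genes were called higher and 0 lower (list median 0.62). For the proteasome list there were 4 higher and 0 lower (median 0.54), and over all genes 4.03% were called higher against control. limma called 0 of 36 cell cycle genes (median -0.02, 5 at an unadjusted p under 0.05) and 0 of 38 genes of chaperones and heat shock (median -0.04, 6 so). Of 32 apoptosis and p53 target genes Bcl2l11, the death activator Bim, rose (1.03 ± 0.30, adjusted p = 0.0483) and Aifm1, the apoptosis-inducing factor of mitochondria, fell (-0.78 ± 0.23, adjusted p = 0.0487). Their list had a median of -0.01, and these 2 calls were lost in 7 and 8 of 8 fits without 1 array.

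Among 16 circadian clock genes Nr1d2 fell, and the median was 0.12, or -0.07 without centring. The list was called at 6.25%, beside 3.91% over all genes. Nr1d2, the nuclear receptor Rev-erb beta that represses Bmal1, stood at -0.21, 0.71, -0.05, 0.22 and 0.55 in sham and at -1.03, -1.19 and -0.73 at 24 h. The groups did not overlap, and the change was -1.22 ± 0.30 (adjusted p = 0.0194). Its call was lost without any 1 of the 24 h arrays or sham replicate 3, with changes of -1.35 to -1.11 and adjusted p-values of 0.0544 to 0.0592. Per2, another clock gene, stood at -0.45 to 0.19 in sham and at -1.37, -1.35 and -1.26 at 24 h and missed the threshold (-1.16 ± 0.34, adjusted p = 0.0531). The labels give no clock time for any lung, and whether the hour of collection differed between the groups was not tested.

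Transcripts typical of other tissues were followed beside these lists. The liver, platelet, adipose, muscle, fibroblast and ion transport lists were called at 6.52%, 4.55%, 13.3%, 3.85%, 4.88% and 2.94%. Over all genes 3.91% were called. Of 46 liver and plasma protein genes F2, prothrombin, rose and Mat1a and C5 fell, and the median was 0.16, with list levels of -0.44 to 0.01 in sham, -0.11 to 0.12 at 24 h and 2.31 on sham replicate 2. F2 stood at -1.78 to -1.38 in sham and at -1.0, -0.38 and -0.60 at 24 h (0.96 ± 0.27, adjusted p = 0.0424), and was also the 1 called gene of 22 platelet and coagulation genes (median 0.20). Mat1a, the methionine adenosyltransferase of liver, had -1.30 ± 0.25 and complement C5 -1.28 ± 0.30. Of 15 adipose genes Lep and Fabp4 fell, at a median of -0.12. Lep, leptin, stood at 0.69, -0.83, -0.67, -0.79 and -0.71 in sham and at -1.88, -1.78 and -3.0 at 24 h (-1.76 ± 0.33, adjusted p = 0.00412), and Fabp4, the fatty acid binding protein of fat cells and macrophages, had -1.17 ± 0.29 (adjusted p = 0.0194). Of 26 muscle genes Atp2a2, the calcium pump of heart and smooth muscle, fell (-1.90 ± 0.53), with -5.00 on 24 h replicate 3, and had -0.68 and an adjusted p of 0.41 without that array. The muscle list's median level was -0.94 to -0.24 in sham and -0.56 to -0.21 at 24 h. Of 41 fibroblast and matrix genes Mmp23 (-1.11 ± 0.30) and Col1a2, a chain of type I collagen (-0.86 ± 0.24), fell, at a median of -0.08. Of 34 ion transport and alveolar fluid genes Slc4a2, an anion exchanger, fell (-0.98 ± 0.26), at a median of 0.16, or -0.02 without centring. Without 24 h replicate 3 the calls of Lep, Fabp4, Mat1a, C5, F2, Mmp23, Col1a2 and Slc4a2 were lost, with changes of -1.37, -0.91, -1.11, -1.04, 0.93, -1.12, -0.72 and -0.70 and adjusted p-values of 0.0544 to 0.273. Of the 8 fits without 1 array F2 was called in 1, Mmp23 and Slc4a2 in 2, Col1a2 and Atp2a2 in 3 and Fabp4 in 5. Without centring 10 list medians given above as positive turned negative, among them those of the neutrophil (-0.08), lymphocyte (-0.07), immediate early (-0.17), mitochondrial (-0.12) and liver lists (-0.02).

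**Figure D4:**
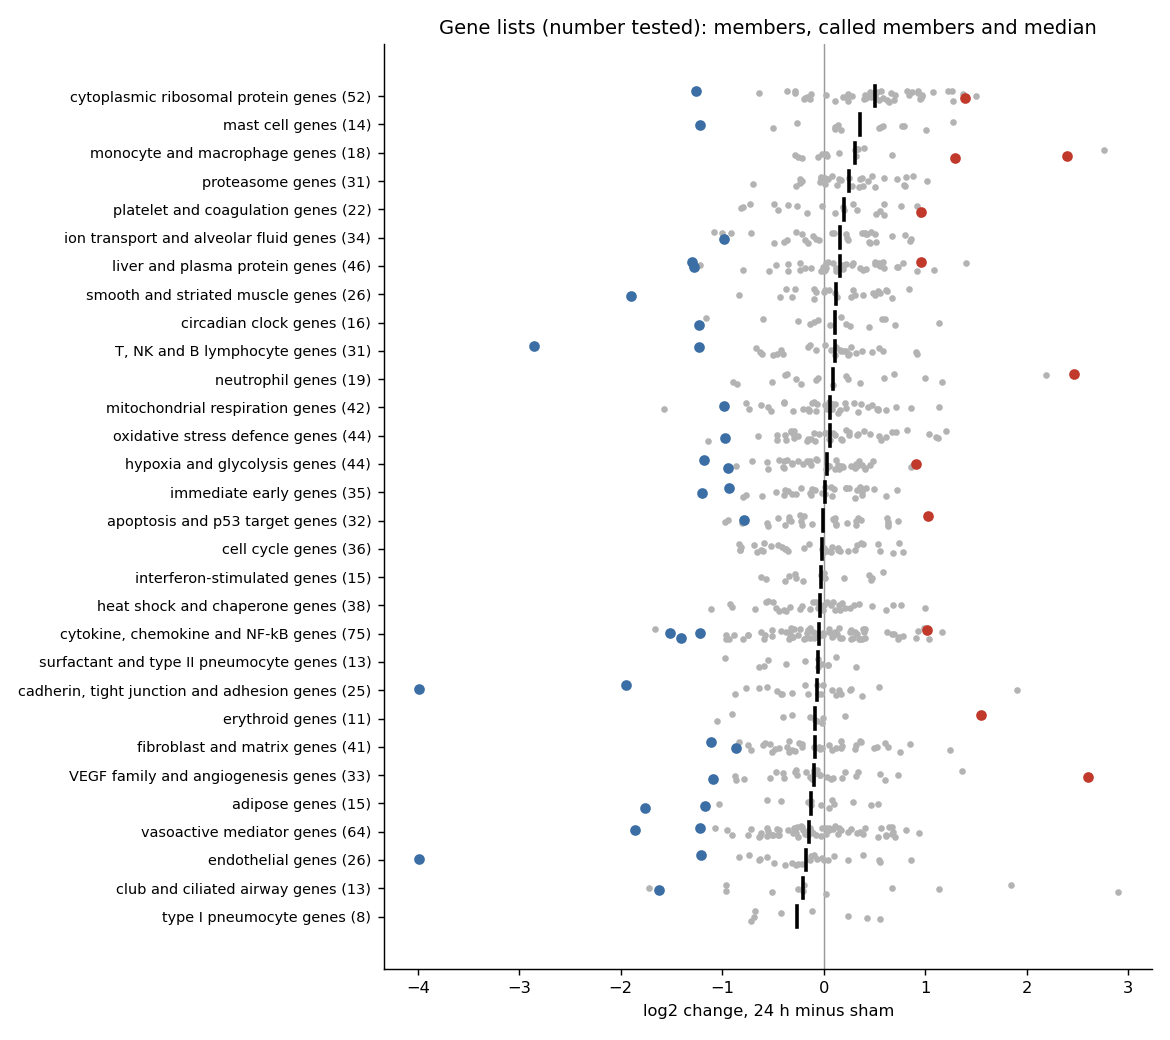
Log2 changes at 24 h against sham on the horizontal axis for the tested members of 30 gene lists, ordered by their medians (black bars), with the number tested in brackets. Grey points were not called, red points were called higher and blue points lower. The cytoplasmic ribosomal list has the highest median (0.50) and the type I list the lowest (-0.27).

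The 24 h lungs were also set against lungs of rats that carried no instruments and against the neighbouring times. These comparisons use the same 3 arrays at 24 h, so they are not independent of the one with sham. Against the 3 control arrays limma called 504 of 5015 genes (10.0%), 202 higher (4.03%) and 302 lower (6.02%). Cdh1 had -2.06 against control beside -1.95 against sham, Klra22 -2.79 beside -2.86, Fcgr2a 1.19 beside 1.30, Pgf 2.55 beside 2.60, Ptprc -1.45 beside -1.23 and Rhag 1.56 beside 1.55. Of the 46 genes called higher against sham, 26 were called higher against control too, a count that shares the 24 h arrays and is no independent check. Among the others, Fcgr2b had 1.47 beside 2.40 (adjusted p = 0.16 against control), Ube3a 0.49 beside 1.15 (0.328) and Nmt1 0.87 beside 1.55 (0.296). Sftpb had -0.25 against control beside -0.97, Fmo2 -0.66 beside -1.62 and Gpx4 -0.54 beside -0.97, and none of these 3 was called against control. Without control replicate 1, 22 genes were called higher and 68 lower, and without 24 h replicate 3 there were 55 and 83. Without centring there were 85 and 482 (85.0% lower against 59.9%).

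Between 24 h and its neighbours limma called almost no gene. Against 16 h it called 1 of 5008 (0.0200%), with 256 at an unadjusted p under 0.05, and against 48 h it called 2 of 5014 (0.0399%), with 348. On simulated data in which 100 genes changed by 1 log2 unit and 100 by 2, the test against 16 h recovered 13% and 81%, that against 48 h 26% and 94%, and that against sham 41% and 96%, so that changes of 1 unit between times would mostly be missed. The simulated noise was normal with the same spread in every group, while the 24 h arrays were more varied than sham, so these shares may be too high. The gene called against 16 h was Rhbdl2, a rhomboid protease, which was lower at 24 h by -3.41 ± 0.58 (adjusted p = 0.0218), and it was called against 48 h too (-3.76 ± 0.53). It stood at -6.27 and -3.58 on the 2 arrays at 24 h that measured it, with 2 spots near the lowest ratio, and at -2.56 to -1.11 in sham. Without 16 h replicate 2 the call against 16 h was lost (-2.99, adjusted p = 0.238). Cdh13 was the other gene lower at 24 h than at 48 h, by -7.16 ± 0.98.

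Levels over all groups place the 24 h values within the time course. Cdh1 averaged -0.43 ± 0.50 (SD, n = 3) at 1 h, -1.46 at 3 h, -1.01 at 6 h, -2.10 at 16 h, -2.27 ± 0.25 (n = 3) at 24 h, -1.88 at 48 h and -2.04 at 72 h, against -0.32 in sham and -0.21 in control. The differences of Cdh1 between 24 h and 16 h or 48 h were not called (adjusted p = 0.973 and 0.864). Klra22 was low at 24 h (-2.53 ± 1.11, n = 3) beside -0.68 at 16 h and -0.49 at 48 h, but these differences were not called (adjusted p = 0.35 and 0.0919). Fcgr2a had its highest mean at 24 h (0.40 ± 0.29, n = 3), beside 0.15 at 16 h and -0.11 at 48 h, and neither difference was called (adjusted p = 0.949 and 0.759). Pgf averaged 0.99 at 3 h, -1.17 at 16 h, 1.87 ± 2.05 (n = 3) at 24 h, 2.04 at 48 h and 1.52 at 72 h, and S100a9 2.06, -0.07, 2.59 ± 2.48 (n = 3), 2.47 and 2.06 at the same times. Both were thus low on the 2 arrays at 16 h, but neither difference between 24 h and 16 h was called (3.04 and 2.66, adjusted p = 0.101 and 0.733). Ccl20 averaged 0.08 at 6 h, 0.09 at 16 h, 0.50 ± 0.23 (n = 3) at 24 h and 0.37 at 72 h. Rhag averaged -0.15 at 16 h, 0.14 ± 1.05 (n = 3) at 24 h and 0.14 at 72 h, and Nr1d2 -1.07, -0.98 ± 0.23 (n = 3) and -0.62. Lep had its lowest mean at 24 h (-2.22 ± 0.68, n = 3), beside -1.70 at 16 h and -1.43 at 48 h. Mdh1 stood at 0.59 to 1.02 from 1 h to 24 h and at 0.23 at 48 h, and none of the differences of these 3 genes between 24 h and 16 h or 48 h was called.

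**Figure D5:**
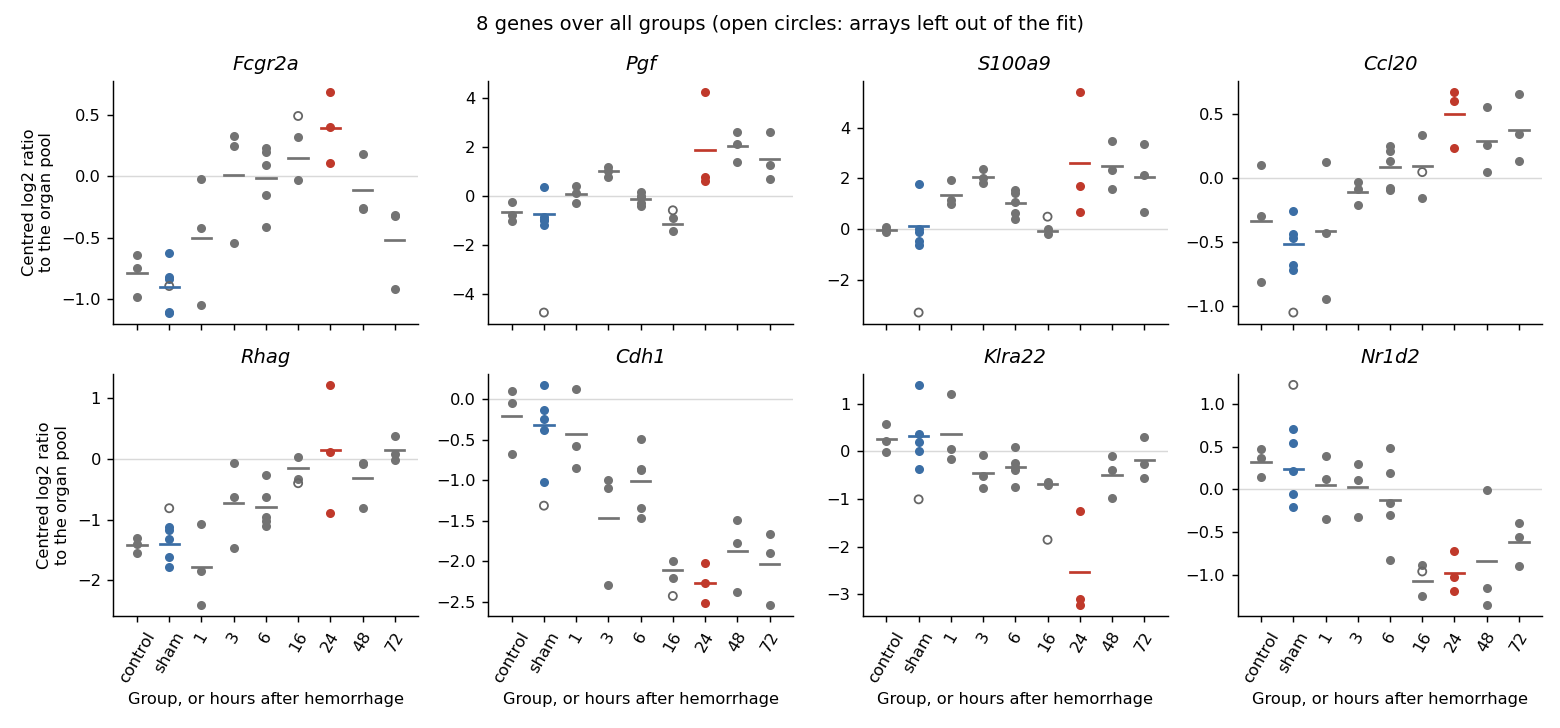
Centred log2 ratios of 8 genes on the vertical axes for control, sham and each time after hemorrhage in hours, 1 point per array with group means as lines. Sham is blue, 24 h red, and open circles are sham replicate 2 and 16 h replicate 3, which were left out of the fit. Cdh1 is low from 16 h to 72 h, while Pgf and S100a9 are low on the 16 h arrays in the fit and have 1 high array at 24 h.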

How the data were processed

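The samples were 32 rat lung RNAs on 2-colour spotted arrays, and groups came from the sample titles. The authors deposited log2 ratios of lung to organ pool, per the labels. As linear ratios they moved in steps of 0.01 (100% within a tolerance of 0.001). The labels and files used here do not state how the arrays were dyed, scanned and normalised, so a shift common to all genes may have been removed before deposit. The direction was read from lung genes standing above the pool.

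Each array was centred on its median. Of 13056 spots, 10652 had 1 gene symbol in the platform annotation, 16 several and 2388 none. Spots were averaged to 5022 genes, of which 5006 were found in a RefSeq gene table on GRCr8. A gene was tested with values on at least 2 of 3 arrays at 24 h and 3 of 5 sham arrays. limma 3.58.1 in R 4.3.3 (lmFit, eBayes, two-sided) was fitted once to 30 arrays in 9 groups, and adjusted p-values are Benjamini-Hochberg over all genes tested. Sham replicate 2 and 16 h replicate 3 were left out for their liver signal. On 16 h replicate 3 the liver list's median level was 1.53 and Alb stood at 2.09. The script was tested on simulated data with 200 changed genes.

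Genes named were the 12 largest called changes in each direction with no overlap between groups. These were ranked only among genes with a value on every array of both groups. Also named were up to 4 called members of each of 30 lists or the member with the smallest p. The genes called against 16 h and 48 h, and genes that earlier results had named, were added. Others are given as chosen after their values were seen or as context for a list. The members, the lists and this rule were chosen with earlier results of these data known. Alternatives were other normalizations, filters, spot summaries, array weights, a replicate block and leaving out each array. The number of arrays limits the precision.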

Additional observations from a re-analysis of the deposited data

Results flagged for a closer look

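For 11 named genes 1 sham array stood apart from the other 4 by more than Dixon's critical value for 5 samples. Sham replicate 3 was the lowest for Fcgr2b, at -3.02, and the highest for Myh3 (1.01), Dmbt1 (0.75), Cyp4f1 (1.11) and Fmo2 (2.77). Sham replicate 4 was the highest for Pgf (0.35) and S100a9 (1.78) and the lowest for Fosl1 (-0.41). Sham replicate 1 was the highest for Lep (0.69) and Jun (1.36) and the lowest for Psma1 (-0.83). Chance flags about 1 in 20 groups, and 64 named genes were looked at. In Pgf, S100a9 and Fosl1 the sham array that stood apart lay on the side of the bled lungs, and in the other 8 genes on the far side.

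At 24 h Rhbdl2 was lower than at 16 h by a log2 difference of -3.41 and than at 48 h by -3.76, and Cdh13 was lower than at 48 h by -7.16. Each rests on 2 of the 3 arrays at 24 h and includes spots near the lowest ratio. In sham replicate 2, which was left out, the median level of the liver and plasma protein genes was 2.31, against -0.44 to 0.01 in the other sham arrays.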

How the results depend on the processing

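At 24 h against sham, higher and lower calls numbered 41 and 138 with sham replicate 2 kept, 39 and 158 after quantile normalization and 54 and 153 with near-floor ratios set to missing. They changed more with 16 h replicate 3 kept (30 higher, 108 lower) and with array weights (23 higher, 120 lower). The same held without centring (26 higher, 372 lower) and with the 8 arrays fitted alone (0 higher, 1 lower). With the replicate block there were 47 higher and 103 lower calls, and 368 against control. The labels do not tie equal numbers together, and deviations of equally numbered arrays correlated at 0.03 and -0.17. With sham replicate 2 kept, the rises of Ccni, Fcgr2b, Svs1, Nmt1, Fzd3, Rnf123, F2 and Bcl2l11 lost their calls (adjusted p = 0.067 to 0.307). The falls of Fez1, Fmo2, Col1a2, Csf3, Aldoa, Slc4a2 and Rpl36 lost theirs (0.0623 to 0.975), with -1.28 for Fez1 and -0.06 for Slc4a2. On that array Ccni stood at 1.82, Svs1 at 1.46 and Nmt1 at 1.31. Leaving out 1 array gave 6 to 96 higher and 30 to 189 lower calls. Of 58 named genes that were called, 6 kept the call in all 8 such fits, and Cdh13 and Rhbdl2 in the 6 fits that could test them. 0 kept it in every fit, the one on 8 arrays included. Of 30 list medians 12 changed sign when 1 array was left out. Of 1207 values of named genes under the alternatives, 880 kept their direction and side of the threshold, 320 lost the call, 7 gained it and 0 changed sign.

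Against control the 504 calls became 335 with sham replicate 2 kept, 0 with the 6 arrays fitted alone and 90 to 561 with 1 array left out. Against 16 h the 1 call became 0 with sham replicate 2 kept, with the 2 groups alone, with values required on all arrays or with near-floor ratios missing, 2 with 16 h replicate 3 kept, quantile normalization or array weights, and 2 to 5 with 1 array left out. Against 48 h the 2 calls became 0 with the 2 groups alone, with values required on all arrays or with near-floor ratios missing, 4 without centring, 6 with array weights and 1 to 9 with 1 array left out. The cause of these changes was not tested, except that fewer arrays or values are used where arrays or values are left out. The coarse scale near the lowest ratio limits the size of large falls.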
